A study of Homo sapiens with 8 samples.

Results

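SNORD12, SNORD12B and SNORD12C are 3 box C/D snoRNAs encoded within ZFAS1, a long non-coding RNA gene of chromosome 20. They were followed here through the NOP2/NSUN1 miCLIP-seq peak lists by taking every peak that the authors annotated with 1 of these 3 names. This gave 7 of the 538 listed peaks, namely 3 of 251 in WT and 4 of 287 in C459A. The data come from HEK293T cells, a human embryonic kidney line, that transiently expressed FLAG-tagged NOP2/NSUN1 for 40 h, either wild type (WT) or with the motif IV cysteine replaced (C459A). NOP2/NSUN1 is a nucleolar RNA m5C methyltransferase, and without this cysteine the enzyme cannot let go of the RNA it has methylated, so that RNA stays covalently attached and is recovered by FLAG immunoprecipitation (IP) without UV light. RNA that is bound without a covalent bond can be recovered as well, and a listed peak does not tell these apart. Each construct had 2 replicate IP libraries and 2 replicate libraries of size-matched input (SMInput), each replicate a separate experiment, 8 libraries in all. Both replicates enter a single value per peak, and the lists hold neither read counts nor peaks below their thresholds. Thus there is no spread between replicates, the depth is unknown, and WT and C459A could not be tested against each other. The 3 snoRNAs were chosen because of their values in these lists, so those values are a description.

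Box C/D snoRNAs are short nucleolar RNAs that assemble with NOP56, NOP58, SNU13 and the methyltransferase fibrillarin. Boxes C and D, brought together by the paired ends of the RNA, form the binding platform of these proteins, and the sequence just upstream of a D or D′ box pairs with a target RNA, usually rRNA, to place a 2′-O-methyl group. Most human box C/D snoRNAs are cut out of the introns of host genes. ZFAS1 is such a host and, like GAS5 and SNHG1, it does not encode a protein.

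In hg38 with the GENCODE release 44 annotation, ZFAS1 lies on the plus strand at chr20:49278178-49299600. SNORD12C was the first snoRNA in it, at chr20:49278940-49279028, 762 bases from the start of the gene. SNORD12B followed at chr20:49280319-49280409 after a gap of 1290 bases, and SNORD12 at chr20:49280683-49280772 after a further 273 bases. SNORD12C was intronic in 11 of the 14 annotated ZFAS1 transcripts and overlapped an exon of none. SNORD12B and SNORD12 were each intronic in 10 transcripts and overlapped an exon of 1.

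**Figure D1:**
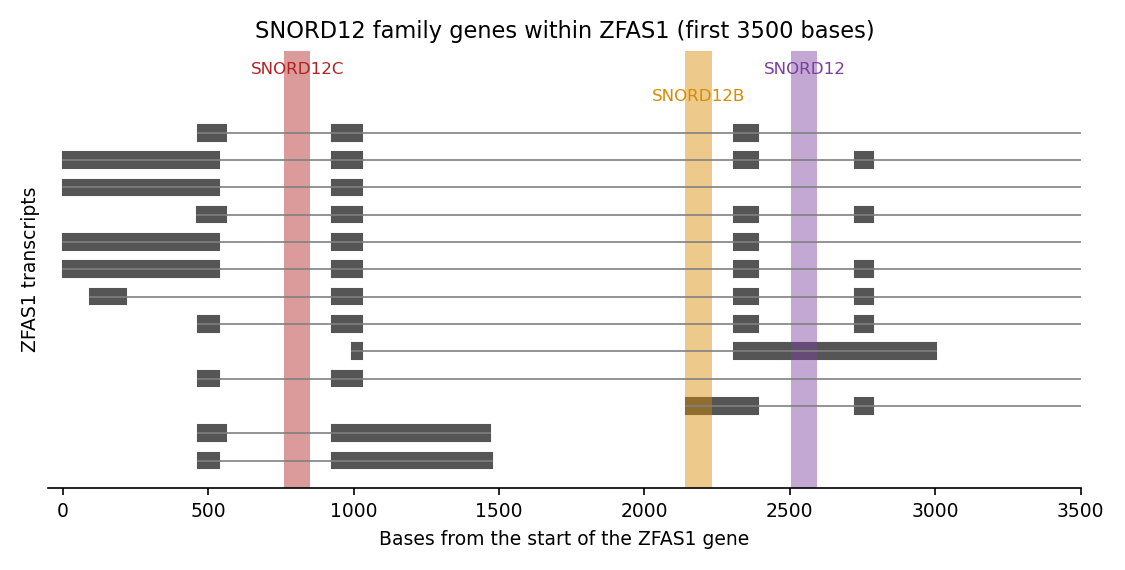
Positions of the SNORD12 family genes (coloured bands) on the 13 annotated ZFAS1 transcripts that begin within the first 3500 bases of the gene. The x axis is the distance in bases from the start of ZFAS1, boxes are exons and thin lines are introns. SNORD12C begins at 762 bases, between exons in the transcripts that span it, and SNORD12B and SNORD12 begin at 2141 and 2505 bases.

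The snoRNA sequences are shown because the peaks are described by their bases. They are read 5′ to 3′ from hg38 over the GENCODE extents, written as DNA, with the box C motif (TGATGA) and the last box D motif (CTGA) in capitals.
SNORD12: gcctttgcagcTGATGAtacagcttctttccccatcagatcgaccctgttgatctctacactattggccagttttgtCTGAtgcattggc
SNORD12B: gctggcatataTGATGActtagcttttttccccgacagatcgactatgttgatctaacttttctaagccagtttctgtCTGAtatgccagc
SNORD12C: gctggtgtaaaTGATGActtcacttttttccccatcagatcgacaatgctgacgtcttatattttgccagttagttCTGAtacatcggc
The 3 RNAs have 90, 91 and 89 bases. In each of them TGATGA occupied bases 12 to 17, and the last CTGA began at base 78 in SNORD12, 79 in SNORD12B and 77 in SNORD12C. TGATGA was present in 73.8% of 313 annotated SNORD transcripts and a CTGA in the last 25 bases in 90.1%, so these motifs do not set the family apart. SNORD12C held a further CTGA at bases 49 to 52, in the middle of the RNA, where SNORD12 and SNORD12B had TTGA beginning at base 49. In SNORD12 another CTGA, at bases 11 to 14, overlapped box C. At least 2 CTGA were found in 65.2% of the SNORD transcripts. Counted inwards from the 2 ends, with G-U pairs allowed, 10 bases of SNORD12B, 9 of SNORD12C and 3 of SNORD12 could pair in an unbroken run, and 39.9% of SNORD transcripts had at least 5 such bases.

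All 3 snoRNAs had a transcript peak in both lists. Of 296 box C/D symbols, 16.2% had a transcript peak in WT and 20.6% in C459A. In WT, the enrichment of IP over SMInput, as a log2 fold change, was 3.51 for SNORD12, 4.22 for SNORD12B and 4.76 for SNORD12C. These values correspond to 11.4-fold, 18.7-fold and 27.1-fold enrichment, and they lay among those of the other snoRNAs, at places 35, 24 and 15 among the 57 WT box C/D peaks. The median log2 fold change was 3.96 over those peaks and 3.44 over the whole WT list. In C459A, the log2 fold change was 6.14 for SNORD12, 5.49 for SNORD12B and 10.10 for SNORD12C, or 70.7-fold, 44.9-fold and 1094-fold enrichment. Here the 3 snoRNAs stood at places 7, 8 and 1 among the 70 box C/D peaks, whose median was 3.76, while the whole C459A list had a median of 3.63. The transcript peak of SNORD12C was at place 2 among all 287 C459A peaks, after an intergenic peak at 10.24. A further SNORD12C peak, aligned to chromosome 20, had a log2 fold change of 8.47, or 354-fold, and took place 4. Its bases lay within those of the transcript peak, so the same RNA is listed on both references. Whether reads were split between the references cannot be told from the lists.

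The adjusted p-values given by the authors' peak caller were 0.00475 for SNORD12, 0.000154 for SNORD12B and 0.00612 for SNORD12C in WT. In C459A they were 1.35e-12, 2.2e-16 and 8.08e-09, and 0.000108 for the chromosome 20 peak. Each of the 3 transcripts thus had the smaller p-value in C459A, as did 73.9% of the 46 box C/D transcripts with a peak in both lists. The order of the p-values was not that of the enrichment, since SNORD12B had the smallest p-value and the lowest fold change of the 3 in C459A. By p-value, the transcript peaks of SNORD12B, SNORD12 and SNORD12C stood at places 9, 11 and 15 among the 70 C459A box C/D peaks. That of SNORD12C, at 1094-fold, was at place 60 of all 287 by p-value. A fold change depends on the SMInput reads as well as the IP reads, and the lists give neither. Each p-value compares IP with SMInput within a construct and says nothing of the difference between constructs.

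The order of the 3 snoRNAs also differed between the lists. In WT it was SNORD12C, SNORD12B, SNORD12, within a range of 1.25 in log2 fold change. In C459A it was SNORD12C, SNORD12, SNORD12B, with a range of 4.61. SNORD12 minus SNORD12B was −0.71 in WT and 0.66 in C459A, and without replicate values these neighbours cannot be told apart. SNORD12 minus SNORD12C was −1.25 in WT and −3.95 in C459A.

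The C459A minus WT difference in log2 fold change was 5.33 for SNORD12C, 2.63 for SNORD12 and 1.27 for SNORD12B. These were the 3 largest differences among the 46 box C/D transcripts listed in both constructs. The next were 1.03 for SNORD21, 0.96 for SNORD3C (a copy of U3, which acts in pre-rRNA cleavage), 0.88 for SNORD14C (U14) and 0.82 for SNORD118 (U8, which is needed for processing of the large subunit rRNAs). Over all 46 transcripts the difference ranged from −1.81 to 5.33 with a median of 0.11, and 54.3% were higher in C459A. Only 4 of the 46 (8.7%) were higher by more than 1, and these were the 3 ZFAS1 snoRNAs and SNORD21. Without the family, the other 43 transcripts had a median of 0.05, an SD across transcripts of 0.65 and a highest difference of 1.03. Each difference also depends on the separate SMInput of each construct, whose reads are not listed. Transcripts without a peak in both lists have no such difference and were not ranked. SNORD49A and SNORD28 are among them, and their C459A values, 6.51 and 6.22, were above the 6.14 of SNORD12.

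**Figure D2:**
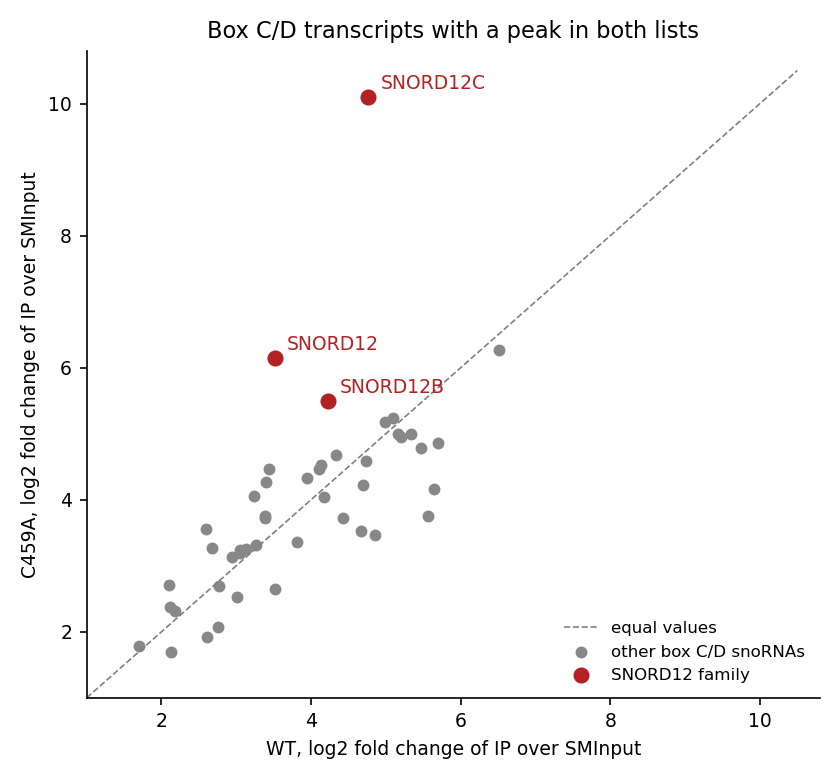
Log2 fold change of IP over SMInput in WT (x axis) and C459A (y axis) for the 46 box C/D transcripts with a peak in both lists. Each point is 1 transcript with both replicates in 1 value, red points are the SNORD12 family, and the dashed line marks equal values. SNORD12C (4.76, 10.10), SNORD12 (3.51, 6.14) and SNORD12B (4.22, 5.49) lie above the line, SNORD12C farthest from it.

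Against all RNA classes the 3 snoRNAs were less apart. Among the 177 transcript and repeat references with a peak in both lists, SNORD12C was again at place 1, SNORD12 at place 3 and SNORD12B at place 9. The places between them were taken by 5S rRNA pseudogenes and an arginine tRNA. Of these 177 references, 15 (8.47%) were higher in C459A by more than 1.

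By the pair of log2 fold changes, WT and C459A, the transcript nearest to SNORD12 was SNORD12B, at a distance of 0.97, ahead of SNORD21 at 1.68 and the U3 copy SNORD3A at 1.69. SNORD12B had closer neighbours outside the family, with SNORD3A at 0.82, SNORD61 at 0.83 and SNORD14B at 0.91. SNORD12C had no near neighbour. The closest to it were SNORD12 at 4.14, SNORD2 at 4.21 and SNORD12B at 4.64. These distances are over 46 transcripts and 2 pooled values each.

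Peak extent separated SNORD12C from its relatives. In SNORD12, the WT peak ran from base 5 to 86 and the C459A peak from base 3 to 89, covering 91.1% and 96.7% of the RNA. In SNORD12B, the WT peak ran from base 5 to 91 and the C459A peak from base 1 to 90, covering 95.6% and 98.9%. Both peaks of these RNAs thus held box C and the last CTGA. In SNORD12C, the WT peak covered bases 1 to 51 only, 57.3% of the RNA, and the C459A transcript peak covered bases 2 to 85, 94.4% of it. The C459A peak on chromosome 20 covered chr20:49278978-49279024, which is bases 39 to 85 of SNORD12C, or 52.8% of the RNA. The same RNA is shown with the bases of each peak in capitals.
WT transcript peak: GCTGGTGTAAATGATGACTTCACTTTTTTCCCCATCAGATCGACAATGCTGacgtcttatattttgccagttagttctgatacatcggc
C459A transcript peak: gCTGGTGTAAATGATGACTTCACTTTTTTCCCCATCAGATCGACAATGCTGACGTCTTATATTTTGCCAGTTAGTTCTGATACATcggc
C459A chromosome 20 peak: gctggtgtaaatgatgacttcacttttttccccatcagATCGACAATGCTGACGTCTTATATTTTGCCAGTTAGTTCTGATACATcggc
The WT peak held box C but not the last CTGA. The chromosome 20 peak held the last CTGA but not box C. These peaks shared 13 bases, 39 to 51, in the middle of the RNA. The WT peak ended on base 51, the third base of the internal CTGA. The lists do not show whether WT reads below the thresholds lay beyond it.

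**Figure D3:**
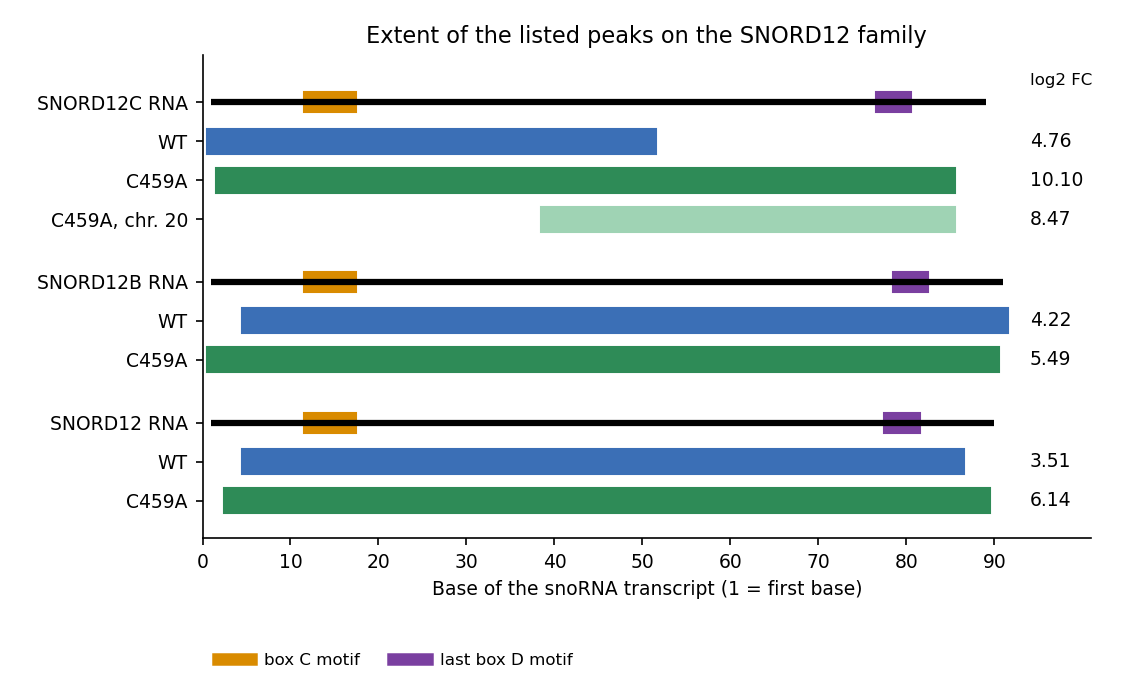
Extent of the 7 listed peaks along the 3 snoRNAs, in bases from the first base of each transcript (x axis). Black lines are the RNAs with box C (orange) and the last box D motif (purple), blue bars are WT peaks, dark green bars C459A transcript peaks, and the light green bar is the C459A peak aligned to chromosome 20. The number beside each bar is its log2 fold change, IP over SMInput. The WT peak of SNORD12C stops at base 51, while the other transcript peaks reach at least base 85.

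Bases covered by both transcript peaks made up 58.8% of the bases covered by either in SNORD12C, the lowest share of the 46 transcripts. The next were SNORD38B at 83.7%, SNORD46 at 87.6%, SNORD70 at 89.7% and SNORD4B at 90.3%. SNORD12 had 94.3% and SNORD12B 94.5%, and the median was 100%. A share under 90% was found in 4 of the 46 transcripts (8.7%). Short peaks were rare among the snoRNA transcripts. Among peaks whose transcripts are in GENCODE release 44, 2 of 45 in WT and 3 of 58 in C459A covered under 60% of the RNA. These were SNORD12C and SNORD3E in WT and SNORD3E, SNORD1B and SNORD83A in C459A.

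The SNORD12C bases that were covered in C459A only, 52 to 85, are 34 bases with 6 cytosines, and the 50 bases covered in both lists contain 12. These are counts of bases only. Covered here means lying in a listed peak, so bases 52 to 85 are not shown to be unbound in WT. The lists hold enriched peaks and no crosslink sites, so a C459A peak here shows neither a covalent bond nor a methylated cytosine in SNORD12C, and all 3 snoRNAs were also enriched with WT. The study mapped the ends of reverse transcription in its IP libraries and reported no potential crosslink or methylation site on snoRNAs. Its plots for this were of U3 and U8. Over all its reads, the study named crosslink sites only on 28S rRNA and on a vault RNA. A log2 fold change refers to a whole peak, and the SNORD12C values of WT and C459A therefore describe different stretches of the RNA. For SNORD12 and SNORD12B, the stretches compared were nearly the same.

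SNORD12C was 1 of 8 box C/D symbols in C459A with both a transcript peak and a chromosome peak, of 61 with a transcript peak (13.1%). In WT 8 of 48 had both (16.7%), and none of these was a ZFAS1 snoRNA. For SNORD12C the chromosome 20 value minus the transcript value was −1.63 on the log2 scale. In the C459A list, SNORD49A was likewise lower on the chromosome, with log2 values of 5.05 against 6.51, and its chromosome peak covered 53.5% of the gene. For SNORD14C the difference, chromosome minus transcript, was −0.27, and for SNORD118, SNORD14E, SNORD32A, SNORD13 and SNORD3A it was 0.04, 0.33, 0.88, 1.34 and 1.58. In WT the symbols with both were SNORD118, SNORD13, SNORD14C, SNORD14E, SNORD15B, SNORD18A, SNORD2 and SNORD3A. There the difference was −2.02 for SNORD2 and −0.80 for SNORD14E. For the others it ran from 0.93 for SNORD13 to 4.03 for SNORD15B. The chromosome 20 peak was the only listed peak within ZFAS1 in either construct, and no peak was annotated as ZFAS1 itself. The peak also ran no further than base 85 of the 89-base snoRNA, so it contained no ZFAS1 sequence outside SNORD12C.

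The 3 RNAs resemble each other, which matters for reads that could align to more than 1 of them. Pairwise identity was 71.0% for SNORD12 and SNORD12B, 73.1% for SNORD12 and SNORD12C and 74.2% for SNORD12B and SNORD12C. The longest run present in all 3 was CAGATCGAC, at bases 36 to 44 of each. SNORD12 and SNORD12C shared 18 bases in a row, TTTCCCCATCAGATCGAC, at bases 27 to 44. Reads shorter than 18 bases had been discarded. Of the windows of that length, 1 of 73 in SNORD12 and 1 of 72 in SNORD12C occurred in another family member, and 0 of 74 in SNORD12B. None of the windows occurred in any other annotated snoRNA. Bases 52 to 85 of SNORD12C, which were covered in C459A only, lie outside the shared run. The run itself lies within both transcript peaks of SNORD12C. Windows were compared for exact identity only, and whether reads aligned to more than 1 of the RNAs was not tested.

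Complementarity to rRNA was searched in the 18S, 5.8S and 28S sequences of the RNA45SN5 cluster. Runs of at least 10 Watson-Crick pairs that end within 1 base of a CTGA were found in 0 of the 3 snoRNAs and in 26.2% of the 313 SNORD transcripts. With at least 8 pairs SNORD12B had a match, bases 71 to 78 with 28S bases 4251 to 4258. With G-U pairs allowed, bases 67 to 77 of SNORD12 matched 28S bases 1869 to 1879 and bases 66 to 75 of SNORD12C matched 18S bases 1533 to 1542, but 66.5% of SNORD transcripts then had a match. Anywhere in the RNA, the longest Watson-Crick run was 11 bases in SNORD12, 10 in SNORD12B and 9 in SNORD12C. Runs as long were found in 35.8%, 48.6% and 83.7% of the SNORD transcripts. The run of SNORD12 is shown with its 28S partner, bases 3897 to 3907 of the RNA28SN5 copy on chrUn_GL000220v1, paired bases in capitals.
SNORD12: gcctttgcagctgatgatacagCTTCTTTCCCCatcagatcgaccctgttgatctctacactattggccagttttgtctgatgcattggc
28S: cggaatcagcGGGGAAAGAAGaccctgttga
These matches are descriptions of sequence, and a guide function was not measured. In the search next to a CTGA only that exact sequence counted, so a D or D′ box with another sequence was not examined.

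The snoRNAs of other non-coding hosts give a comparison. Of 10 GAS5 snoRNAs only SNORD47 was listed, on its chromosome, at log2 values of 3.81 (WT) and 3.47 (C459A). Of 8 SNHG1 snoRNAs, SNORD22 and SNORD26 were listed in both constructs and SNORD27 and SNORD28 in C459A only. SNORD22 had 2.10 in WT and 2.72 in C459A, and SNORD26 had 3.52 and 2.65. SNORD28, at 6.22, was above SNORD12 in C459A, and since it has no WT value its difference is unknown. All 3 ZFAS1 snoRNAs were listed in both. Among the 11 hosts with at least 2 snoRNA transcripts listed in both constructs, the median C459A minus WT difference was 2.63 for ZFAS1, and the next was 0.63 for HSPA8, host of U14 copies. For the other 9 hosts it lay between −0.99 and 0.20. The lowest ZFAS1 difference, 1.27 for SNORD12B, was above the highest difference of each of the other 10 hosts. Only transcripts listed in both constructs enter these differences, so SNORD27 and SNORD28 of SNHG1 are left out. The family was picked for these values, so the comparison of hosts is a description with no test.

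**Figure D4:**
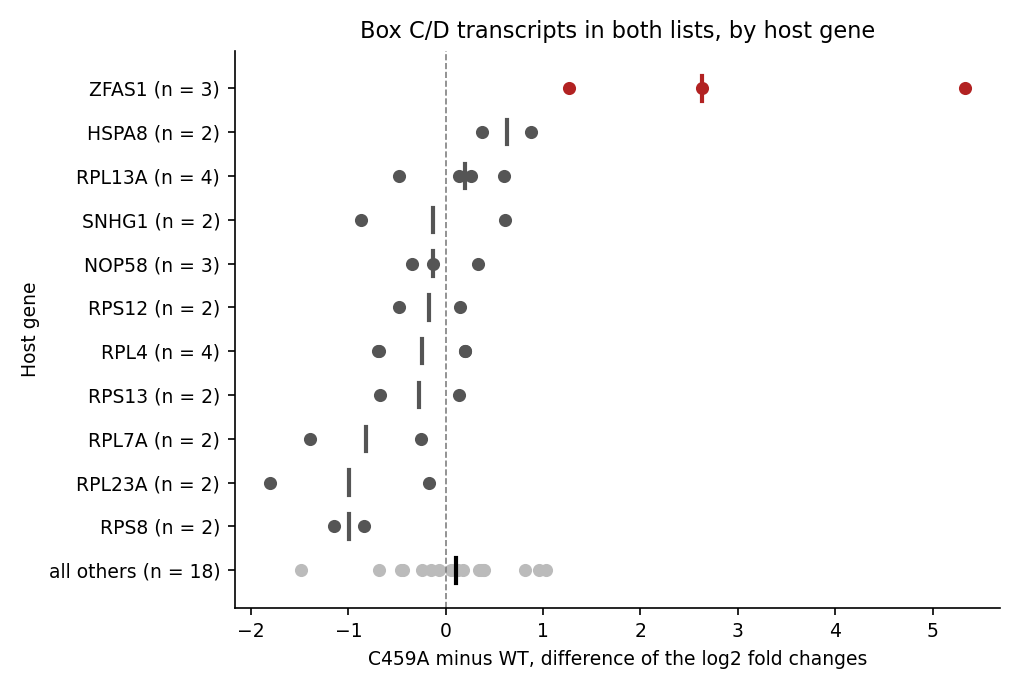
C459A minus WT difference of the log2 fold changes (x axis) for the 46 box C/D transcripts listed in both constructs, grouped by host gene (y axis). Each point is 1 snoRNA transcript, vertical bars are medians, and the last line holds the 18 transcripts of hosts with a single listed pair or without a host. The 3 ZFAS1 points lie at 1.27, 2.63 and 5.33, to the right of all points of the other named hosts.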

How the data were processed

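miCLIP-seq was performed on FLAG-NOP2/NSUN1 WT and C459A in HEK293T cells, with 2 replicates each of IP and SMInput. The authors trimmed reads with cutadapt, moved the UMI to the read name with fastp, discarded reads under 18 bases, aligned to hg38 and repetitive element families, called peaks with Peakachu (maximum insert 220) and annotated them by hand. Tool versions: not given in the sources used here. Per peak, the deposited lists hold the log2 fold change between IP and SMInput and the −log10 of the adjusted p-value, with both replicates in 1 value and thresholds of 2-fold and 0.05. Adjusted p-values were obtained here from the −log10 values. No read count was used here, so depth and precision are unknown, and the spread between replicates cannot be given.

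Peaks of the 2 lists were paired where they overlapped by at least 1 base on one strand of one reference. Host genes, exons and sequences came from hg38 and GENCODE release 44 (biopython 1.88, pysam 0.24.0, pandas 2.3.3), and box C/D symbols from the gene name table, which lacks SNORD47. Global alignments scored 1 for a match, −1 for a mismatch, −2 for opening a gap and −0.5 for extending it. The pairing and complementarity steps were tested on simulated data. Named snoRNAs were the family, the 3 nearest transcripts of each member, the 5 with the largest difference and the 5 with the smallest shared extent, those with peaks on both kinds of reference, the GAS5 and SNHG1 snoRNAs, and the snoRNAs of the study's RT-qPCR. Any other snoRNA named was chosen after its values were seen. The members and lists were chosen with earlier results of these data known.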

Additional observations from a re-analysis of the deposited data

How the results depend on the processing

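Of 54 alternative values, 47 kept their direction and size. Some of these could not change, because a member's own C459A minus WT difference does not depend on the transcripts compared. Among all 177 transcript and repeat references instead of box C/D transcripts, SNORD12 ranked 3 and SNORD12B 9, and the median C459A minus WT difference was −0.15 instead of 0.11. Without SNORD3, SNORD14 and SNORD118 (36 transcripts) that median was −0.10, so its sign depends on the transcripts compared. SNORD12C, SNORD12 and SNORD12B kept ranks 1, 2 and 3 in that set, with 50% of both peaks shared, with adjusted p under 0.01 and with at least 4-fold enrichment. The 50% setting removed none of the 46 transcripts, so its ranks and median could not differ. The number of members with an rRNA match next to a CTGA was 1 with runs of at least 8 and 2 with G-U pairs, against 0. With the RefSeq extent of SNORD12C, chosen after seeing the data, the chromosome 20 peak covered 58.2% of the RNA instead of 52.8%. No paired analysis was possible because each listed value holds both replicates, and for the same reason no replicate could be left out. The depth of the libraries is unknown and its effect on peak extent was not tested.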

Other observations

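The study measured SNORD12 by RT-qPCR in HCT116 cells with NOP2/NSUN1 knockdown, in immunoprecipitates of proteins that assemble with box C/D snoRNAs. It reported less of the tested snoRNAs bound to these proteins after knockdown. Re-expressing WT or a catalytically inactive NOP2/NSUN1 reversed the decrease. By RT-qPCR in HEK293T cells, it also reported box C/D snoRNAs enriched in FLAG IP of both WT and C459A. The SNORD12 primers were compared with all members of the family. They are printed as designed, 5′ to 3′.
Forward: ctttccccatcagatcgaccc
Reverse: gccaatgcatcagacaaaactg
The forward primer, of 21 bases, matched SNORD12 at bases 26 to 46 with 0 mismatches, and the best places in SNORD12C and SNORD12B had 3 and 5. The reverse primer, of 22 bases, matched SNORD12 at bases 69 to 90 with 0 mismatches, against 5 in SNORD12C and 9 in SNORD12B. In the miCLIP lists, which are from HEK293T cells and a different comparison, the C459A minus WT difference in log2 fold change was 2.63 for SNORD12 and 5.33 for SNORD12C.

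RNase T1, the enzyme used to trim the RNA, cuts after G. The WT peak of SNORD12C ended on a G, at base 51, and the base before the chromosome 20 peak, base 38, was also a G. Both C459A peaks of SNORD12C ended at base 85, which is a T. Over all box C/D transcript peaks, counting only ends with at least 3 bases of the transcript beyond them, 3 of 6 WT peaks and 4 of 9 C459A peaks ended on a G. Of the starts counted in the same way, 2 of 4 in WT and 2 of 6 in C459A followed a G. The G share of the transcripts was 23.3% and 23.5%. These counts are small, and whether the digestion set the ends was not tested.

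RefSeq gives SNORD12C as bases 6 to 84 of the GENCODE extent, so both C459A peaks ran 1 base past its RefSeq end, and it gives SNORD12B as 103 bases, at chr20:49280313-49280415. All bases above are counted in the GENCODE extents.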
